A study of Homo sapiens with 22 samples.

Results

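Of the 65346 regions of the CTCF count table on chromosomes 1 to 22 and X, 1150 had lost their deposited CTCF peaks after 72 h of phorbol ester. A region was included where it overlapped, by at least 1 bp, a peak of both CTCF libraries at 0 h and of neither CTCF library at 72 h. These regions made up 5.08% of the 22647 regions with a peak in both 0 h libraries. A further 17939 of those kept a peak in both 72 h libraries (called kept regions here), and 3558 kept it in 1 of the 2. The regions were chosen by the deposited CTCF peaks at 0 and 72 h, so all CTCF values given are a description of that choice and carry no test. The tests concern the other antibodies, whose libraries the choice did not use.

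The cells were K562, a human chronic myeloid leukaemia line that can be pushed towards the erythroid or the megakaryocyte lineage, labelled wild type throughout. They received 25 nM PMA, a phorbol ester that activates protein kinase C, to induce megakaryocyte differentiation, for 0, 6 or 72 h, with the 0 h cells as the comparison. All cells were crosslinked with 1% formaldehyde before chromatin was profiled by the assay that titles shorten to CNR, read here as CUT&RUN, where a nuclease tethered by an antibody releases the DNA around its target. The 22 libraries form 11 groups of 2: the 3 time points for each of CTCF, Jun and H3K27ac, and 0 and 72 h for Rad21. Nothing states that the 2 libraries of a group came from separate cultures, so p-values measure the spread between these libraries, which may be technical.

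CTCF is a zinc finger protein that binds a long DNA motif and halts cohesin, the ring complex that extrudes chromatin loops, so that many loops have CTCF at both ends. Rad21 is the subunit that closes the cohesin ring. H3K27ac, acetylated lysine on the tail of histone H3, marks promoters and enhancers in use. Jun is a subunit of AP-1, a dimeric activator that phorbol esters induce. CTCF also sits at many promoters, where it may bind without strong cohesin accumulation.

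Region counts summed to 2553677 to 6068421 per CTCF library, 4398797 to 7285286 for Rad21, 12634261 to 27266241 for H3K27ac and 4766421 to 18883962 for Jun. The authors had called 33632 and 28029 CTCF peaks at 0 h, then 18043 and 26792 at 6 h, then 27158 and 40805 at 72 h. That both 72 h libraries lack a peak at every region described follows from the rule itself. Rad21 peaks numbered 34680 and 59005 at 0 h against 33048 and 25687 at 72 h. Jun peaks numbered 31637 and 35072 at 0 h against 92329 and 99102 at 72 h. Mitochondrial regions took 17.8 and 22.1% of the CTCF counts at 0 h, then 30.5 and 20.4% at 6 h, then 9.55 and 9.63% at 72 h; the part of this shift in any result was not tested. In H3K27ac at 0 h, erythroid gene spans were marked (HBG2 70.0 and 70.3, KLF1 68.9 and 68.7 CPM), against 4.37 and 5.69 for the T cell gene CD3E and 0 in both libraries for the B cell gene PAX5, although the lymphoid gene CD2 read 72.4 and 78.3. CPM here stands for counts divided by a library's summed counts over regions that passed the filter on low counts, set to a common size of 1000000. The sums were scaled by TMM, which corrects for differences in composition between libraries.

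Sequence was at hand for promoter windows, taken from RefSeq (GRCh38.p14) as 250 bases before to 50 after each start site, and 144 windows lay with at least 150 bases inside 113 of the 1150 regions. The core of the CTCF motif was searched as CCNNNAGNNGGC on both strands. It occurred in 25 of the 144 windows, or 17.4%, against 29.5% of 1606 windows in 1257 kept regions and 10.6% of all 34961 windows. For regions with 1 of the 72 h peaks it was 21.2% of 439 windows in 315 regions. Median GC content was 63.7% in the windows of lost regions, 64% in those of kept regions and 58.7% in all windows. It was 63% in those of regions with 1 of the 72 h peaks. The AP-1 motif TGANTCA, which Jun dimers bind, was searched in the same way, with any overlap between matches of the motifs ignored. It was found in 2 windows of lost regions (1.39%), in 4.61% of those of kept regions and in 7.68% of all windows. For regions with 1 of the 72 h peaks the share was 4.78%. Windows of neighbouring transcripts can overlap, so these shares are descriptive. A match is not a bound site, and its lack says only that these letters are not in that window.

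The 8 regions with a core before the start site that had the highest CTCF at 0 h are given here as 80 bases 5′ to 3′ on the strand of the gene, with the core in capitals. They show which DNA the weakened CTCF signal lay over, and how far the flanks differ behind a shared core. SPAG7 lies at chr17:4967908-4967987 (minus strand), RTN4R at chr22:20268412-20268491 (minus), KCNH2 at chr7:150975042-150975121 (minus) and HIF1AN at chr10:100535747-100535826 (plus). PIK3R3 lies at chr1:46133070-46133149 (minus), NKD2 at chr5:1008626-1008705 (plus), ANKRD6 at chr6:89432959-89433038 (plus) and DGKZ at chr11:46347318-46347397 (plus).
SPAG7: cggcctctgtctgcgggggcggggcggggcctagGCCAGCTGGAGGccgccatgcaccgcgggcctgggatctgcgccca
RTN4R: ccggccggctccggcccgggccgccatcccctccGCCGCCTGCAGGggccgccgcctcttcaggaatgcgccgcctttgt
KCNH2: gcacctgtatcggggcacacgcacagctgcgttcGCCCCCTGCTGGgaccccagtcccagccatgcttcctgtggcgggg
HIF1AN: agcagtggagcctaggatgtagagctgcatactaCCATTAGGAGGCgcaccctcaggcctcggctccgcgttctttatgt
PIK3R3: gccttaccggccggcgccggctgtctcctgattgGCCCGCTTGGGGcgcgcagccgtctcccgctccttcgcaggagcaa
NKD2: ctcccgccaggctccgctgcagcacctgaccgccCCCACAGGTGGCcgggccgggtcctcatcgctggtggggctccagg
ANKRD6: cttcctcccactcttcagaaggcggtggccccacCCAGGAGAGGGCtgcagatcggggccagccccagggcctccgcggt
DGKZ: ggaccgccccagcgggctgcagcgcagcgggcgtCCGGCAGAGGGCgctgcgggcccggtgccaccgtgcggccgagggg
In SPAG7, RTN4R, KCNH2 and PIK3R3 the core reads on the strand opposite to the gene.

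CTCF at the SPAG7 promoter read 15.3 and 27.8 CPM at 0 h, then 11.98 and 4.07 at 6 h, then 6.45 and 9.13 at 72 h. Both 72 h libraries lay below both 0 h libraries there. At the RTN4R promoter, which carries 2 cores, CTCF read 16.82 and 16.96 CPM at 0 h and 16.1 and 9.27 at 72 h. One 72 h library was thus close to the 0 h level although no peak was called in it. At the KCNH2 promoter, of a cardiac potassium channel gene, CTCF read 14.3 and 10.8 CPM at 0 h against 9.68 and 8.99 at 72 h. The promoter of PIK3R3, a regulatory subunit of phosphoinositide 3-kinase, read 9.69 and 14.4 CPM at 0 h against 5.30 and 4.35 at 72 h.

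The region with the strongest weaker 0 h peak of the 1150, at the TRAF2 promoter, had no full CTCF core in the part of its window inside the region. The window opens with AGAGGGC, which matches the end of the core (AGNNGGC). The bases just before it lie in the region but outside the window, so a core across this edge could not be searched. TRAF2 is an adaptor of tumour necrosis factor receptor signalling, and the 250 bases before its start site (chr9:136886266-136886515, plus strand) are shown.
TRAF2: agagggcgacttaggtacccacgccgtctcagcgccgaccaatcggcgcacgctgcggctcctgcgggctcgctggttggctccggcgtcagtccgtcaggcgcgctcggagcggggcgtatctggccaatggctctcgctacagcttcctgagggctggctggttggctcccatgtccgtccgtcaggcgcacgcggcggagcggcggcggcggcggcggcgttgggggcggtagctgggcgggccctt
CTCF there read 19.9 and 37.9 CPM at 0 h, then 5.83 and 8.14 at 6 h, then 3.46 and 4.50 at 72 h, so that all later libraries lay below both 0 h libraries.

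Across the 1150 regions the median CTCF level was 8.67 and 9.92 CPM in the 0 h libraries, 6.47 and 6.10 at 6 h, and 4.84 and 4.50 at 72 h. In raw counts these medians were 34 and 27.5, then 20 and 15, then 21 and 32, so a typical region rested on few reads. Kept regions were higher throughout, at 20.6 and 22.01, 18.8 and 21.97, and 17.5 and 17.6 CPM. Regions with 1 of the 72 h peaks lay between, at 11.5 and 12.6, 10.0 and 10.6, and 7.60 and 8.71 CPM. The lost regions were thus weak CTCF regions from the start, and their median did not reach 0. In such a bulk measurement, fewer cells with CTCF at a region and less CTCF per cell cannot be told apart.

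**Figure D1:**
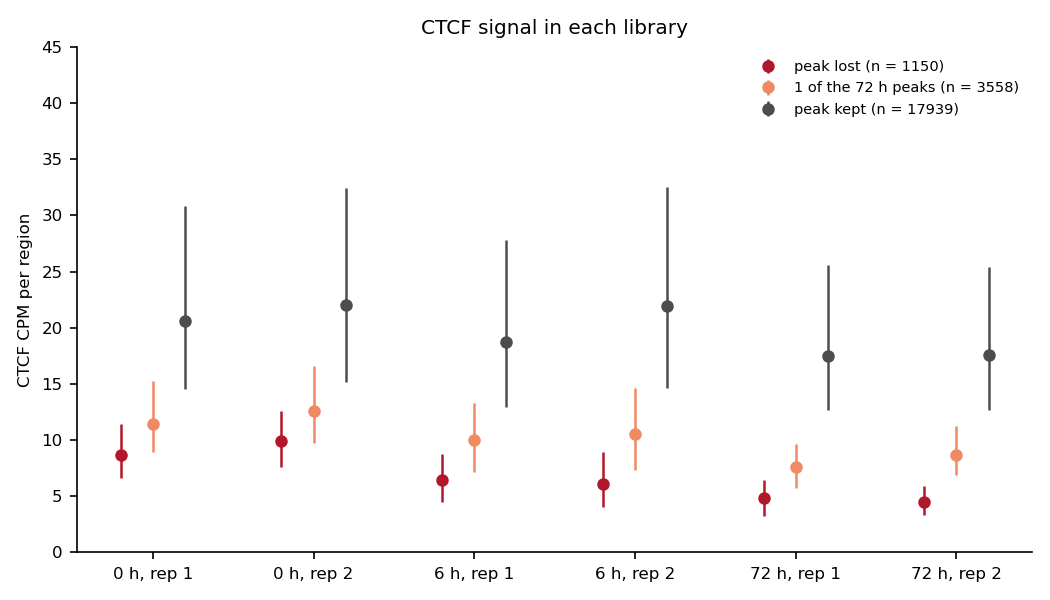
Median CTCF level (CPM) in each CTCF library for the 1150 regions that lost their peaks, the 3558 with 1 of the 72 h peaks and the 17939 kept regions; bars span the quartiles over regions. Lost regions fall from medians of 8.67 and 9.92 CPM at 0 h to 4.84 and 4.50 at 72 h, and kept regions stay between 17.5 and 22.01 CPM.

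The weaker of a region's 2 peaks at 0 h had a median −log10 q of 6.66 in the authors' peak lists (range 2.38 to 42.5), against 8.07 for regions with 1 of the 72 h peaks and 15.5 for kept regions. Its fold enrichment had a median of 5.71, against 6.18 and 8.24. Just outside the rule, the single 72 h peak of the 3558 regions had a median −log10 q of 10.1 and a lowest value of 2.77, and 3315 of these peaks were in the second 72 h library, which has the larger total. The lost regions were also narrower, with a median width of 431 bp (200 to 1002 bp) against 502 and 630 bp. Requiring a −log10 q of at least 10 for both 0 h peaks left 192 regions.

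The CTCF change from 0 to 72 h had a median log2 fold change of −1.03 over the 1149 regions that passed the filter on low counts, with quartiles of −1.35 and −0.73 and a range of −3.61 to 0.46. The median was −0.57 for regions with 1 of the 72 h peaks, −0.31 for kept regions and 0.03 over all CTCF regions tested. Scaling by total counts moved the first to −0.81 and the last to 0.26. Both 72 h libraries lay below both 0 h libraries at 1062 regions (92.3%, against 53.3% of kept regions), and above them at 2. The mean fell at least 2-fold at 613 regions and at least 4-fold at 60. A region without a deposited peak at 72 h therefore often kept CTCF reads within a factor of 2 of its starting level.

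The 6 h libraries were not used by the choice, although every change from 0 h uses the 0 h libraries that were. Neither 6 h library had a CTCF peak at 769 regions (66.9%), 1 had it at 324, and both had it at 57 (4.96%), whereas 70.7% of kept regions had both. By library, 8.26 and 29.8% of the lost regions had a 6 h peak, the lower share in the 6 h library with the fewest peaks. The mean CPM at 6 h lay between those at 0 and 72 h at 791 regions, at or below the 72 h mean at 217 and at or above the 0 h mean at 143. The median log2 fold change from 0 to 6 h was −0.55, against −0.11 at kept regions and 0.02 over all regions tested.

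The deposited table gives each region a class for its course over time. Of the 1150 regions, the authors' deposited table called 1133 static, 16 early up and 1 late up, with none in a down class. All 17 labelled up had lower mean CTCF CPM at 6 and at 72 h than at 0 h, with a median log2 fold change of −2.70 at 72 h. The classes therefore did not follow the direction of the counts at these regions and were not used for direction.

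Of the 1150 regions, 824 (71.7%) lay in a RefSeq gene span, against 62.3% of kept regions. A start site lay within 1 kb of 154 of the 1122 regions on chromosomes with sequence windows (13.7%), against 10.1% of kept regions. The median distance to a start site was 17754.5 bp, against 21930.5 bp for kept regions. The regions were spread over all 23 chromosomes, with 3.06% (chromosome 8) to 7.62% (chromosome 13) of a chromosome's regions with both 0 h peaks. Only 24 lay within 10 kb of another lost region, while 212 (18.4%) lay within 10 kb of a kept region and 242 (21.0%) lay more than 100 kb from one.

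Cohesin peaks were less common at these regions than at kept regions, before treatment as after it. A region of the Rad21 table overlapped 519 of the 1150 (45.1%), against 85.0% of kept regions. At 0 h, 27.7 and 26.3% of the lost regions had a Rad21 peak, and at 72 h 12.6 and 9.91% did. Kept regions went from 61.1 and 61.8% to 43.0 and 33.9%. No Rad21 peak was called in any of the 4 libraries at 710 lost regions (61.7%, against 20.9% of kept regions). Of the 199 lost regions with a Rad21 peak in both 0 h libraries, 87 had it in neither 72 h library and 74 had it in both. Of the 8693 such kept regions, the counts were 2266 and 4084.

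**Figure D2:**
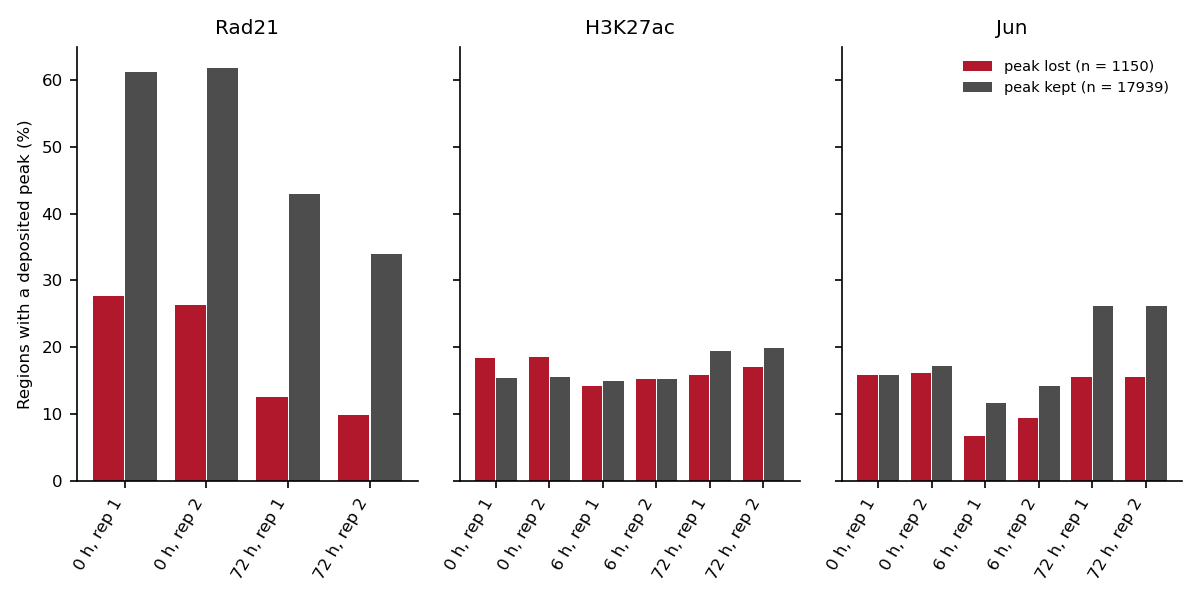
Percentage of the 1150 lost and the 17939 kept CTCF regions that overlap a deposited Rad21, H3K27ac or Jun peak, with 1 bar per library. For Rad21 both sets fall, from 27.7 and 26.3% to 12.6 and 9.91% in lost regions and from 61.1 and 61.8% to 43.0 and 33.9% in kept regions.

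Where it could be tested, Rad21 fell more often than it rose. Of 496 regions that passed the count filter, 85 (17.1%) were called lower at 72 h and 6 (1.21%) higher by edgeR's quasi-likelihood test at a Benjamini-Hochberg adjusted p under 0.05. Over all 83750 Rad21 regions tested, 7.91% were lower and 15.4% higher. Of the kept regions, 10.8% were lower and 4.19% higher, and of regions with 1 of the 72 h peaks 11.3% were lower. The median log2 fold change was −0.58, against −0.45, −0.31 at kept regions and −0.05 over all regions tested. The library medians went from 5.66 and 5.28 CPM to 3.42 and 3.58 in lost regions and from 7.86 and 7.39 to 6.10 and 6.03 in kept regions. The count of lower calls depended on single libraries, being 28 without the first 0 h library, 27 without the first and 31 without the second 72 h library, and 22 by DESeq2. Without the first 0 h library the median was −0.26.

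Acetylation was present at a minority of the regions and mostly fell there. A region of the H3K27ac table overlapped 288 of the 1150 (25.0%, against 30.5% of kept regions), and all 288 were tested. At 72 h 215 (74.7%) were called lower and 30 (10.4%) higher, by edgeR's quasi-likelihood test. Over all 94865 H3K27ac regions tested 38.1% were lower and 43.4% higher. The median log2 fold change was −0.89, against −0.34 at kept regions, where 44.3% were lower and 25.3% higher, −0.66 at regions with 1 of the 72 h peaks, where 64.8% were lower, and 0.18 over all. The library medians at lost regions were 19.6 and 20.8 CPM at 0 h, then 15.9 and 15.2 at 6 h, then 11.6 and 11.7 at 72 h. At kept regions they were lower and nearly level, at 4.37 and 4.37, 5.32 and 4.97, and 4.67 and 4.70 CPM. The lost regions that joined thus started with more acetylation than the kept ones. So did regions with 1 of the 72 h peaks, at 17.3 and 17.7 CPM at 0 h, so this was not particular to lost regions.

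At 6 h, 155 of the 288 (53.8%) were lower in H3K27ac and 33 (11.5%) higher, against 26.3% lower and 32.3% higher over all regions tested. The median was −0.43, against 0.04 at kept regions and 0.20 over all. Regions with 1 of the 72 h peaks had 46.7% lower and a median of −0.30. The split at lost regions moved with the scaling, since total counts in place of TMM gave 94 lower and 63 higher. With total counts, the median over all regions went from 0.20 to 0.53. Peaks changed less than levels. H3K27ac peaks were called at 18.4 and 18.5% of lost regions at 0 h, then 14.3 and 15.3% at 6 h, then 15.9 and 17.04% at 72 h. Of the 196 regions with both 0 h peaks, 33 had neither 72 h peak and 144 had both. Of the 2436 such kept regions, the counts were 209 and 2058. Both 72 h peaks without a 0 h peak were found at 17 lost regions (1.48%), against 4.27% of kept regions.

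Jun fell at most of the regions where it was measured, while its peaks over the genome rose in number. A region of the Jun table overlapped 280 lost regions, of which 279 were tested. At 72 h 230 (82.4%) were lower and 9 (3.23%) higher, by edgeR's quasi-likelihood test. Over all 132947 Jun regions tested 25.7% were lower and 28% higher. The median log2 fold change was −1.43, against −1.16 at regions with 1 of the 72 h peaks, −0.81 at kept regions and 0.17 over all. At kept regions 49.0% were lower. The library medians fell from 9.63 and 10.3 CPM at 0 h to 6.24 and 5.47 at 6 h and 3.95 and 3.54 at 72 h. With total counts in place of TMM, the 72 h median was −0.87, with 188 lower and 18 higher, and the median over all regions moved from 0.17 to 0.73.

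At 6 h 125 Jun regions (44.8%) were lower and 6 (2.15%) higher, against 12.2% lower and 13.1% higher over all regions tested. The median was −0.74, against −0.20 at kept regions, where 14.4% were lower, and 0.06 over all. Regions with 1 of the 72 h peaks had 34.1% lower and a median of −0.50. Jun peaks were called at 15.9 and 16.1% of lost regions at 0 h, then 6.70 and 9.48% at 6 h, then 15.6 and 15.6% at 72 h. Kept regions went from 15.9 and 17.2% to 11.7 and 14.2% and then to 26.2 and 26.1%. Jun totals and peak numbers rose at 72 h and the mitochondrial share of Jun counts fell from 24.0 and 27.7% to 9.07 and 8.58%. Their part in the fall of Jun at these regions was not tested.

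**Figure D3:**
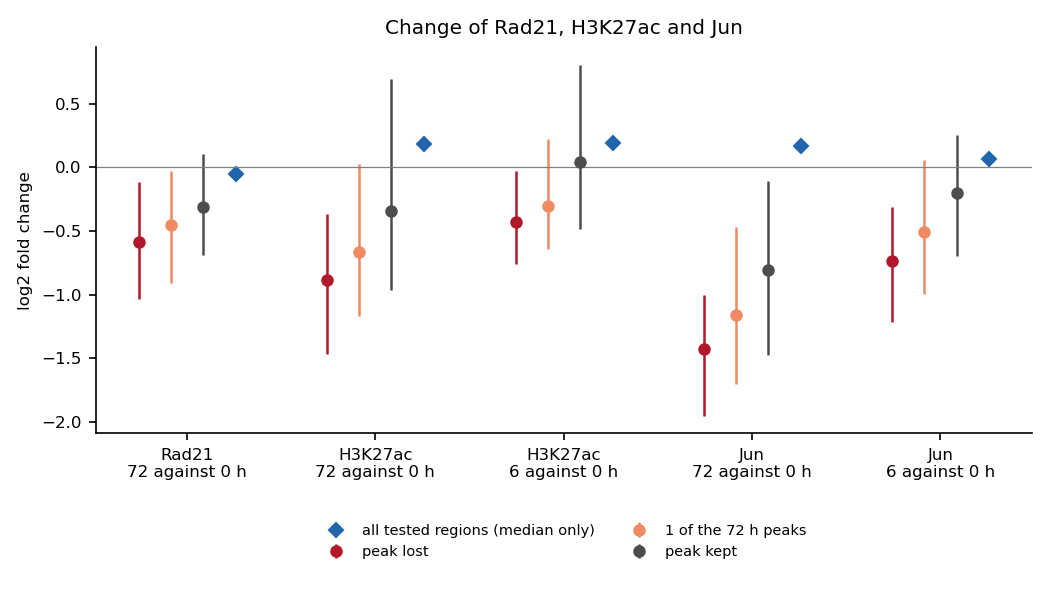
Median log2 fold change against 0 h (bars, quartiles over regions) of Rad21, H3K27ac and Jun at lost regions, regions with 1 of the 72 h peaks and kept regions, with diamonds for the median of all regions tested. At 72 h the medians of lost regions are −0.58 for Rad21, −0.89 for H3K27ac and −1.43 for Jun, each below the kept regions (−0.31, −0.34 and −0.81).

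The 6 h and 72 h comparisons share their 0 h libraries and so are not independent of each other. Of the 216 regions tested for both H3K27ac and Jun, 158 were lower in both at 72 h, out of 167 lower in H3K27ac and 186 lower in Jun. The others included 5 higher in both, 6 higher in H3K27ac and lower in Jun, and 0 lower in H3K27ac and higher in Jun. Rad21 and H3K27ac were both tested at 241 regions, and 34 were lower in both, out of 36 lower in Rad21 and 189 lower in H3K27ac. Rad21 and Jun were both tested at 248, and 30 were lower in both, out of 33 and 215. By count over all 1150 regions, 22 were lower in all 3 antibodies, 156 in 2, 152 in 1 and 820 in none. Of the 820, 592 were tested for none of the 3. Taken singly, 38.1% of all H3K27ac, 25.7% of all Jun and 7.91% of all Rad21 regions tested were lower. Joint calls were not counted over all or kept regions, so these overlaps cannot be called particular to lost regions. Most of the 216 were lower in each of H3K27ac and Jun, so many would be lower in both without any link.

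Regions near start sites and those far from them read differently, although the difference was not tested. Within 1 kb of a start site, Jun was lower at 107 of 112 tested regions (95.5%) and H3K27ac at 104 of 122 (85.2%), while Rad21 was lower at 7 of 124 (5.65%). Beyond 1 kb, Jun was lower at 120 of 164 (73.2%), H3K27ac at 108 of 163 (66.3%) and Rad21 at 77 of 363 (21.2%). Over all regions tested, near and far together, 25.7% were lower in Jun, 38.1% in H3K27ac and 7.91% in Rad21. No such split was made over all or kept regions, so the difference cannot be called particular to lost regions. The median Rad21 change was −0.16 near start sites and −0.74 away from them. The median of mean CTCF levels went from 10.7 to 5.23 CPM near start sites and from 9.02 to 4.52 CPM elsewhere. Of the 154 regions near start sites, 110 had H3K27ac peaks and 80 had Rad21 peaks in both 0 h libraries.

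**Figure D4:**
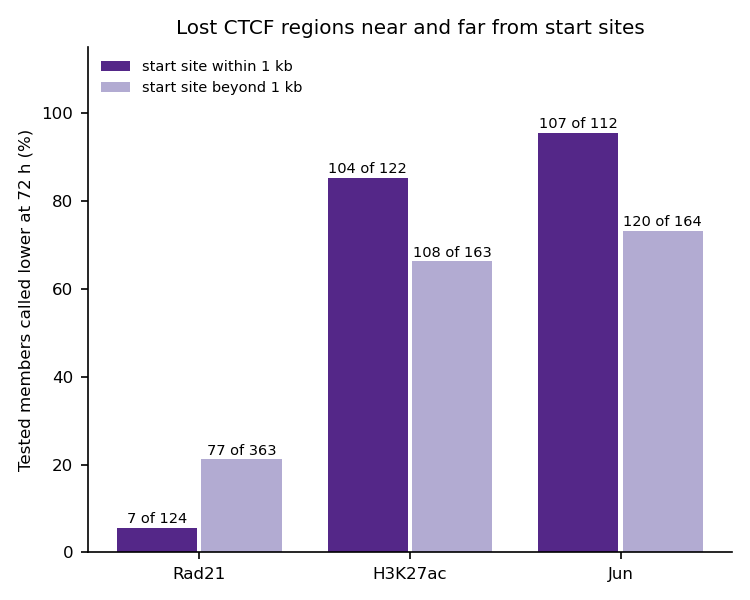
Percentage of tested lost regions called lower at 72 h (edgeR's quasi-likelihood test, adjusted p under 0.05) for each antibody, for the 154 regions within 1 kb of a start site and the 968 beyond it. Rad21 was lower at 5.65% near and 21.2% away from start sites, H3K27ac at 85.2 and 66.3%, and Jun at 95.5 and 73.2%. Over all regions tested, without this split, the shares were 7.91, 38.1 and 25.7%.

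The 196 regions with H3K27ac peaks in both 0 h libraries had Jun lower at 156 of 166 tested regions (94.0%) and Rad21 lower at 25 of 178 (14.0%). The 921 with no H3K27ac peak at 0 h had Jun lower at 55 of 91 (60.4%) and Rad21 lower at 56 of 292 (19.2%). Over all regions tested at 72 h, not split, 25.7% were lower in Jun, 38.1% in H3K27ac and 7.91% in Rad21. Differences between the subgroups given here were not tested. The same splits were not made over all or kept regions, so they cannot be called particular to lost regions. CTCF at the acetylated regions went from 10.6 to 5.07 CPM. The 57 regions that still had both CTCF peaks at 6 h had Jun lower at 6 h at 0 of 7 tested regions. This compares with 111 of 217 among the 769 that had neither, and with 12.2% of all Jun regions tested. With 7 regions tested no difference can be read from this. H3K27ac peaks in both 0 h libraries were also present at only 4 of the 57, against 160 of the 769. Among the 192 regions with strong 0 h peaks, the calls were 23 of 120 lower in Rad21 (19.2%), 56 of 70 in H3K27ac (80%) and 59 of 66 in Jun (89.4%, median −1.90). Their CTCF went from 13.4 to 5.30 CPM.

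Some lost regions lost all measured features together. At OGG1 and TADA3 (chr3:9786435-9787094), which overlap there and encode a DNA glycosylase that removes oxidised guanine and a subunit of SAGA-type acetyltransferase complexes, CTCF read 18.9 and 23.1 CPM at 0 h, then 9.39 and 7.32 at 6 h, then 4.61 and 3.65 at 72 h. H3K27ac read 39.0 and 45.2, then 10.6 and 12.2, then 3.73 and 3.97 CPM, which is −3.45 on the log2 scale (SE 0.14, adjusted p 2.42e-17, edgeR's quasi-likelihood test). Jun read 13.4 and 13.3, then 0.908 and 2.55, then 1.66 and 0.637 CPM (−3.55, SE 0.35). Rad21 fell from 9.43 and 9.92 to 2.38 and 2.262 CPM (−2.04, SE 0.38, adjusted p 0.000481). The region was named under a rule that required groups at 0 and 72 h not to overlap for Rad21 and H3K27ac. Those of CTCF, part of the choice of regions, and of Jun did not overlap there either. Most of the H3K27ac and Jun fall was in place by 6 h.

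At GYPB (chr4:144018250-144018890), which encodes the red cell surface protein glycophorin B, CTCF read 19.1 and 19.8 CPM at 0 h, then 4.86 and 9.36 at 6 h, then 6.22 and 5.76 at 72 h. H3K27ac read 96.1 and 96.5, then 24.7 and 30.5, then 11.6 and 13.8 CPM, with log2 fold changes of −1.80 at 6 h and −2.92 (SE 0.12, adjusted p 3.75e-17, edgeR's quasi-likelihood test) at 72 h. Rad21 fell from 49.5 and 35.7 to 10.3 and 9.43 CPM (−2.11, SE 0.26). GYPB belongs to a multigene family with near-identical copies, so reads may be shared and the assignment to GYPB is uncertain.

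Inside the span of LOC105376936 (chr3:5438154-5438534), H3K27ac fell from 57.1 and 56.6 CPM at 0 h to 10.8 and 13.7 at 6 h and 2.28 and 2.62 at 72 h (−4.53, SE 0.15, adjusted p 4.12e-19, edgeR's quasi-likelihood test). CTCF was weak there, at 5.86 and 6.13 CPM at 0 h against 1.15 and 1.40 at 72 h. Rad21 went from 6.29 and 4.43 to 1.64 and 0.943 CPM, a call that was lost by DESeq2 and without the first 0 h library or the second 72 h library. At FAM86B2-DT (chr8:12523156-12523683) H3K27ac read 36.6 and 38.5, then 26.1 and 23.7, then 3.40 and 2.77 CPM (−3.60), so there the fall came mainly after 6 h.

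Rad21 also fell at SLC11A2 and TSPAN7. SLC11A2 (chr12:51028062-51028528) encodes an iron transporter, and Rad21 there went from 12.3 and 10.6 to 2.53 and 2.64 CPM (−2.14, SE 0.36, adjusted p 0.000179, edgeR's quasi-likelihood test) beside CTCF of 11.5 and 22.4, then 6.80 and 8.95, then 5.76 and 5.48 CPM. TSPAN7 (chrX:38634563-38634956), a tetraspanin gene, had Rad21 of 9.91 and 9.50 CPM at 0 h against 1.79 and 3.205 at 72 h (−1.98, SE 0.39). Its H3K27ac was lowest at 6 h, at 25.7 and 23.7, then 4.97 and 6.64, then 8.80 and 7.68 CPM.

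Large Jun falls were also called at ANO8, CDR2, TRAF2 and a region of chromosome 1 outside any gene span (chr1:124068508-124068763). At the chromosome 1 region, 2496619 bp from the nearest gene, Jun read 14.7 and 11.0, then 16.1 and 6.75, then 2.28 and 1.53 CPM (−2.76). How uniquely reads map there was not tested, so the signal may include reads shared with other places. At ANO8 (chr19:17332628-17333117), a member of the anoctamin family, Jun read 26.5 and 24.9 CPM at 0 h, then 6.58 and 5.11 at 6 h, then 2.09 and 2.84 at 72 h (−3.37, SE 0.23, adjusted p 3.26e-09, edgeR's quasi-likelihood test). CTCF there read 17.8 and 21.3, then 7.45 and 5.29, then 2.53 and 4.92 CPM, the same order of time points. At CDR2 (chr16:22374531-22374892), which encodes an antigen of paraneoplastic cerebellar degeneration, Jun read 14.0 and 11.9, then 5.67 and 4.56, then 2.09 and 1.78 CPM (−2.74, SE 0.26). H3K27ac at CDR2 was not called at 6 h, at 12.1 and 14.3 CPM at 0 h against 16.3 and 12.2, and was lower at 72 h, at 5.28 and 5.43 (−1.30).

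At the TRAF2 region (chr9:136886160-136886562), Jun read 18.5 and 15.9 CPM at 0 h, then 5.45 and 6.57 at 6 h, then 3.33 and 1.91 at 72 h (−2.72, SE 0.26, adjusted p 5.49e-08, edgeR's quasi-likelihood test). H3K27ac read 54.3 and 52.7, then 37.2 and 39.1, then 19.7 and 20.2 CPM (−1.42, SE 0.11). Rad21 was not called, at 8.49 and 8.65 CPM at 0 h against 8.63 and 7.54 at 72 h. The strongest CTCF loss by peak score was thus accompanied by lower Jun and acetylation, with Rad21 at about its starting level.

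A minority of lost regions gained acetylation. Of the 30 with H3K27ac higher at 72 h, 22 were also higher at 6 h, and Jun was higher at 5 and lower at 6 of the 20 tested. Over all regions tested, 32.3% were higher in H3K27ac at 6 h. In Jun at 72 h, 28% of all were higher and 25.7% lower. CTCF levels of the 30 regions went from 11.3 to 6.64 CPM. At ABLIM3 (chr5:149151694-149152238), an actin-binding LIM protein gene, H3K27ac read 15.0 and 16.9 CPM at 0 h, then 19.5 and 20.6 at 6 h, then 73.8 and 77.4 at 72 h (2.25, SE 0.11, adjusted p 1.41e-15, edgeR's quasi-likelihood test). Jun there read 3.50 and 2.29, then 2.72 and 0.912, then 10.4 and 10.4 CPM (1.84, SE 0.31). CTCF at ABLIM3 overlapped between times, at 6.12 and 11.9, then 6.80 and 9.36, then 7.83 and 9.55 CPM, so the peak was no longer called there although the level was about the same.

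The intergenic region chr10:110535757-110536246, 13799 bp from the nearest gene, RPL7P35, had almost no H3K27ac at 0 h, at 0.454 and 0.474 CPM. It rose to 6.16 and 6.94 CPM at 6 h and 10.4 and 11.2 at 72 h (4.52, SE 0.27, adjusted p 4.28e-14, edgeR's quasi-likelihood test). Jun was highest at 6 h, at 4.81 and 5.59, then 29.5 and 25.9, then 17.4 and 16.1 CPM. CTCF read 15.3 and 7.94, then 7.45 and 8.54, then 5.53 and 5.20 CPM. Rad21 went from 8.18 and 5.07 to 15.3 and 11.3 CPM, higher by 0.99 on the log2 scale, a call lost with total counts, by DESeq2 and without the second 0 h library or the first 72 h library.

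FOSB, which encodes an AP-1 partner of Jun, held a lost region at chr19:45469361-45469694 with CTCF of 5.86 and 9.74 CPM at 0 h, then 4.53 and 2.03 at 6 h, then 4.38 and 4.35 at 72 h. H3K27ac rose there, from 14.1 and 14.6 CPM to 24.6 and 24.0 and then 27.8 and 28.1 (0.96, SE 0.12, adjusted p 3.89e-08, edgeR's quasi-likelihood test). Jun fell, from 14.0 and 13.5 CPM to 5.45 and 7.85 and then 5.71 and 3.40 (−1.60, SE 0.25). Opposite directions were also found at DNAJB5-DT (chr9:34989284-34989713), where H3K27ac went from 10.3 and 14.1 CPM at 0 h to 23.3 and 25.1 at 72 h (0.99) while Jun went from 21.9 and 23.5 to 12.6 and 9.93 CPM (−1.01), a Jun call that total-count scaling lost. At RECQL and GOLT1B (chr12:21501502-21501889), a DNA helicase gene and a Golgi transport gene, Jun fell from 9.77 and 11.2 to 4.18 and 4.12 CPM (−1.33). H3K27ac there was higher by 0.42 on the log2 scale, a call lost without the second 72 h library. At MAD1L1 (chr7:2099338-2099822), a spindle checkpoint gene, H3K27ac went from 2.101 and 2.27 to 5.94 and 5.61 CPM (1.40), while a Jun call there was lost by DESeq2 and whichever of its libraries at 0 or 72 h was left out. CTCF at MAD1L1 overlapped between times, at 7.14 and 8.30 CPM at 0 h against 8.06 and 7.30 at 72 h, so its level was about the same.

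**Figure D5:**
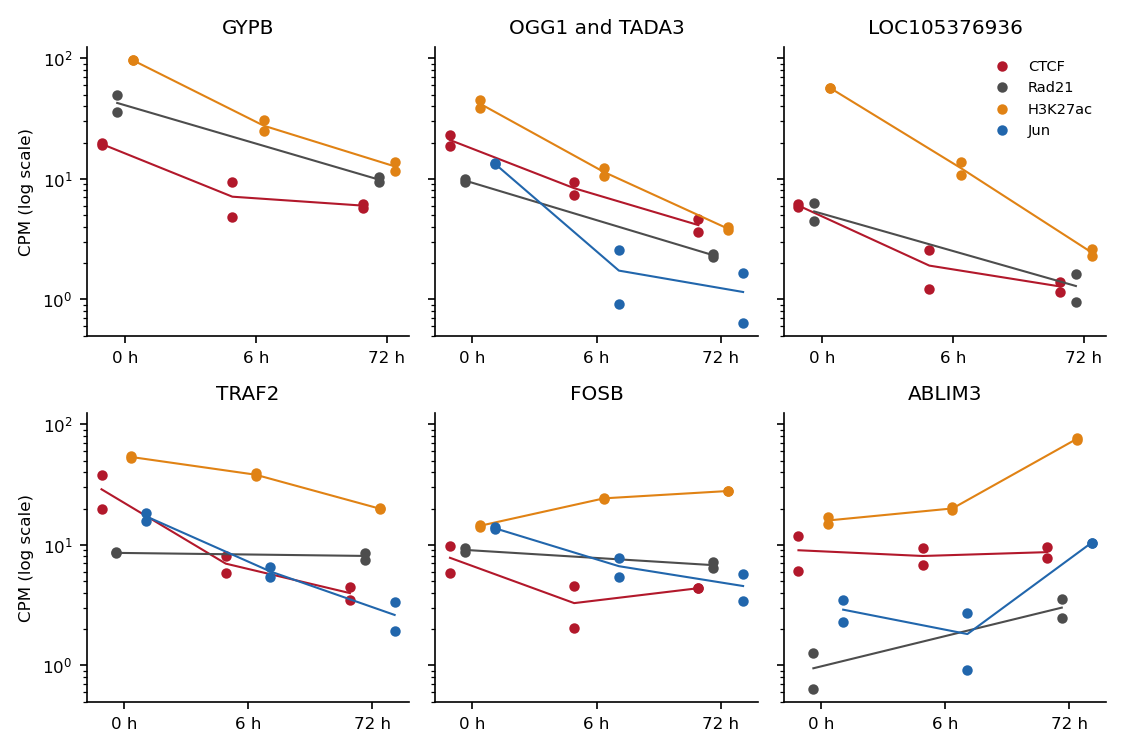
Levels (CPM, log axis) of CTCF, Rad21, H3K27ac and Jun at 0, 6 and 72 h at 6 named lost regions; dots are libraries and lines join the means. GYPB and the region at OGG1 and TADA3 fall in every antibody measured, TRAF2 keeps Rad21 between 7.54 and 8.65 CPM, FOSB gains H3K27ac while Jun falls, and ABLIM3 gains H3K27ac to 73.8 and 77.4 CPM.

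Among the 6 regions with the highest CTCF CPM at 0 h, a missing peak did not always go with a lower level. At chr21:8428053-8428735, on the short arm of chromosome 21, CTCF read 126 and 98.5 CPM at 0 h, then 178 and 96.8 at 6 h, then 175 and 133 at 72 h. The 72 h libraries were thus above both 0 h libraries, and Rad21 was not called, at 155 and 200 against 227 and 230 CPM. At chr1:143245437-143245656 CTCF read 68.8 and 50.9, then 109 and 30.9, then 52.8 and 41.7 CPM, with overlapping groups, while Jun fell from 44.6 and 36.7 to 9.46 and 8.45 CPM (−2.18, SE 0.25, adjusted p 5.97e-07, edgeR's quasi-likelihood test). At this pair of regions the peak calls and the counts did not move together. How uniquely reads map at the pair was not tested.

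The other 4 had clear falls. SNX10 (chr7:26368726-26369200), a sorting nexin gene, read 37.7 and 37.9 CPM of CTCF at 0 h, then 24.0 and 39.5 at 6 h, then 9.45 and 12.6 at 72 h, with no region of another antibody. FAM157C (chr16:90166394-90167042) read 37.7 and 29.6, then 8.42 and 11.8, then 14.3 and 13.3 CPM. The region nearest HAPLN2 (chr1:156627370-156627838) read 31.6 and 33.2, then 17.8 and 25.6, then 13.1 and 12.6 CPM. At the immunoglobulin lambda locus by PRAME (chr22:22552385-22553122) CTCF read 38.5 and 38.3, then 50.8 and 41.1, then 24.9 and 16.998 CPM, so the fall came after 6 h. A small Jun decrease there, from 30.2 and 33.1 to 24.0 and 21.8 CPM, lost its call whichever Jun library at 0 or 72 h was left out and turned to 0.10 on the log2 scale with total counts.

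Of the 6 Rad21 regions called higher, the pair named by the rule lay far from genes, and how uniquely reads map there was not tested. Rad21 at chr10:41415127-41415483, 733835 bp from the nearest gene, went from 4.72 and 5.91 to 12.2 and 9.05 CPM, and at chr12:35522420-35522828, 1272154 bp from one, from 3.77 and 5.28 to 7.74 and 11.5 CPM. Both calls were lost with total counts and by DESeq2. The first was also lost without the first 0 h or the first 72 h library, and the second without the first 0 h or the second 72 h library. CTCF at the chromosome 10 region read 12.2 and 10.1 CPM at 0 h against 9.91 and 7.30 at 72 h. At the chromosome 12 region it read 6.37 and 8.66 against 8.76 and 5.34 CPM, with overlapping groups.

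Lists of known genes held few of the regions. Of 19 genes of the CTCF and cohesin machinery, STAG2 and YY1 each held 1 lost region, against 19 kept regions over the list. STAG2 (chrX:124017999-124018248) encodes a cohesin subunit; CTCF in its span read 6.12 and 7.58, then 4.53 and 1.63, then 4.61 and 3.37 CPM. Rad21 at STAG2 went from 4.09 and 4.85 to 0.298 and 2.262 CPM, a call lost by DESeq2 and without either 0 h library or the first 72 h library. YY1 (chr14:100271345-100271591), a zinc finger factor at promoters and enhancers, read 9.18 and 6.495, then 4.53 and 5.29, then 4.38 and 1.69 CPM of CTCF.

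Of 22 erythroid genes, GYPB and ALAS2 each held 1, against 15 kept regions. ALAS2 (chrX:55011189-55011728), the first enzyme of haem synthesis in red cells, read 7.90 and 10.8 CPM of CTCF at 0 h, then 3.88 and 2.85 at 6 h, then 4.38 and 4.35 at 72 h. Of 21 megakaryocyte genes, MYH9, the non-muscle myosin heavy chain of platelets, held 1 (chr22:36314539-36314840). It was not tested, having counts of only 7 and 9, then 5 and 3, then 6 and 3. FOSB was the single hit among 20 early-response genes, against 7 kept regions.

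Of 23 imprinted genes, PLAGL1 (chr6:143962280-143962695), a growth-restraining zinc finger gene, held 1, where CTCF read 3.57 and 8.66, then 3.56 and 1.63, then 0.230 and 1.69 CPM. The protocadherin clusters, adhesion genes whose promoter choice is known to depend on CTCF, held 3 lost regions against 7 kept. The region at PCDHA1 and PCDHA2 (chr5:140794622-140795407) read 11.5 and 16.6, then 12.3 and 6.51, then 4.84 and 5.62 CPM. PCDHB4 (chr5:141121588-141121985) read 7.65 and 5.77, then 6.80 and 8.14, then 5.30 and 2.81 CPM. PCDHB13 (chr5:141213638-141214128) read 7.90 and 11.9, then 3.56 and 7.32, then 6.45 and 6.74 CPM.

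A large CTCF fall was not enough to be included. The region at SP2 (chr17:47895745-47896428) read 77.5 and 133, then 19.4 and 15.1, then 9.45 and 14.2 CPM of CTCF but kept 1 of the 72 h peaks. The region at SPATC1L (chr21:46184397-46184865) read 95.3 and 158 CPM at 0 h against 19.6 and 14.3 at 72 h and kept both.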

How the data were processed

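The authors deposited a table of counts per region for each antibody, 1 column per library, and a peak list per library with a fold enrichment (a ratio over background) and −log10 q for each peak. Per the submitters' processing notes the tools were Trim Galore 0.4.3, BWA 0.7.17, SAMtools 1.9, deepTools 3.0.1, MACS2 and bedtools 2.26, with builds hg19 and hg38; coordinates here fit hg38. How regions were built and counted, and strand and duplicate handling, are not given in the sources used here. The deposited counts were tested as they stand.

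A region joined another antibody's region or a peak by at least 1 bp; where several overlapped, the one with most shared bases was used. For each antibody 1 fit over all its libraries used edgeR 4.0.16 in R 4.3.3 (filterByExpr, TMM, quasi-likelihood test, Benjamini-Hochberg over all regions of the table, threshold 0.05). The pipeline was tested on simulated data. Alternatives were DESeq2 1.42.0, total-count scaling, a mean count of at least 50, no filter, a replicate block, stricter peaks and leaving out each library. Within groups, libraries differed by more than counting noise (chi-square per degree of freedom 2.15 to 6.02).

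The regions and gene lists were chosen with earlier results of these data known. Regions named are the 6 with the highest CTCF at 0 h, members at listed genes (at most 3 a list) and those with the largest called change per antibody. The last had a mean CPM over all libraries at or above the median of tested members. They also had no overlap between the 0 and 72 h libraries of that antibody. They were 4 lower and 2 higher for Rad21, and 4 each way for H3K27ac and Jun, of which Jun had 2 higher. RefSeq spans carry no exons here, so exon and intron were not separated.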

Additional observations from a re-analysis of the deposited data

How the results depend on the processing

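The number of lost regions was 192 with a −log10 q of at least 10 at 0 h, 1150 where a peak had to cover 50% of the region or lie 50% in it, and 1393 to 6469 when the rule used 1 library fewer. Below, counts are given as higher and lower calls. With total counts Rad21 had 1 higher, H3K27ac at 6 h 63 and 94, Jun at 72 h 18 higher and Jun at 6 h 12 higher. A mean count of at least 50 gave 1 and 21 for Rad21 and 150 lower for Jun at 72 h, from fewer regions tested. DESeq2 gave 0 and 22 for Rad21, 21 higher for H3K27ac at 6 h, and 5 and 3 higher for Jun at 72 and 6 h. The 192 strict regions gave 1 and 23 for Rad21, for H3K27ac 6 and 56 (72 h) or 9 and 40 (6 h), and for Jun 1 and 59 (72 h) or 2 and 42 (6 h), with fewer regions. Leaving out 1 library gave 3 to 9 and 27 to 84 for Rad21, for H3K27ac 25 to 28 and 199 to 207 (72 h) or 26 to 29 and 135 to 150 (6 h), and for Jun 3 to 6 and 205 to 212 (72 h) or 3 to 6 and 88 to 117 (6 h). Replicate numbers are not stated to pair libraries, and same-numbered deviations correlated at −0.01 to 0.12; the replicate block gave 3 higher and 120 lower for Jun at 6 h, 8 and 95 for Rad21, and moved no other count by 1.5 times. Of 59 called values of named regions, 43 kept direction and call under every setting and 1 reversed, Jun by PRAME at 0.10 with total counts. Where no cause is given, the cause was not tested. Depth limits CTCF, with median counts of 15 to 34 per lost region and library.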
